A study of Mus musculus with 16 samples.

Results

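The genes described here are 10 mouse germline genes whose promoters are known to carry DNA methylation in cells other than germ cells: Dazl, Ddx4, Sycp1, Sycp3, Mael, Stk31, Tdrd1, Tdrd9, Tuba3a and Piwil2. They were taken by name from 34614 protein-coding and lncRNA genes of the RefSeq annotation, and each was measured over its gene body and 5 kb beyond each annotated end, on mm10 coordinates. The study marked CpGs modified by DNMT1, the methyltransferase that maintains DNA methylation, in E14TG2a, a line of mouse embryonic stem cells. It used cells with the heterozygous Dnmt1 N1580A knock-in, which keep a wild-type Dnmt1 copy, and cells with wild-type Dnmt1. Cells took up 1 mM Ado-6-azide, an azide-bearing analog of the methyl donor S-adenosylmethionine, by electroporation, and DNA was isolated 3 h later. Reads primed from an oligonucleotide tethered to the azide then marked the labelled CpGs.

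There were 16 libraries in 7 groups. The knock-in cells gave 11 libraries, namely 3 of a triplicate called Het and 2 each for days 0, 2, 4 and 8 of priming. Day 0 cells were naive and grew in serum and leukemia inhibitory factor with the kinase inhibitors CHIR99021 and PD0325901, and the later days followed withdrawal of both inhibitors. Wild-type Dnmt1 cells gave 3 libraries (WT) and 2 further ones called wild-type control. The culture state of the Het triplicate, what sets the wild-type control apart from WT, and whether the knock-in line is a single clone are not stated in the labels. Read totals were 4202118 to 25175264 per knock-in library, over 390158 to 3423423 listed positions, and 1640 to 22890 per wild-type library. Day 0 libraries listed the fewest positions of the knock-in libraries, with a mean of 11.4 reads per position against 4.08 on day 8. No label says whether replicates came from separate cultures, so the p-values measure only the spread between these samples, which may be technical.

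In somatic and embryonic stem cells such promoters are held silent. The E2F6 and MGA-MAX complex, related to Polycomb, recruits repressors to E2F and E-box sites in many of them, and CpG methylation then keeps them off. DNMT1 copies that methylation to the new strand after each round of replication. Most CpG-rich promoters of the genome are unmethylated and offer DNMT1 no such substrate, so a germline promoter is a place where a CpG-rich start can carry methylation in these cells.

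The promoter sequences of 4 members are shown because they held the most distinct listed CpGs upstream of the start. Each is the 250 bases before the transcription start in RefSeq's GRCm38.p6 table, written on the gene's own strand. Capitals mark each CpG that was listed in at least 1 of the 11 knock-in libraries, and a CpG in lower case was listed in none of them.
Ddx4: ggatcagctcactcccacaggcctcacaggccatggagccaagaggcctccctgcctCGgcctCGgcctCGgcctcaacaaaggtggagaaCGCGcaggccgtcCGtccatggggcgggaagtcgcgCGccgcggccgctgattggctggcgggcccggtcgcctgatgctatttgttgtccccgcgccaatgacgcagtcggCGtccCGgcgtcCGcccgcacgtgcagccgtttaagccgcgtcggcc
Sycp1: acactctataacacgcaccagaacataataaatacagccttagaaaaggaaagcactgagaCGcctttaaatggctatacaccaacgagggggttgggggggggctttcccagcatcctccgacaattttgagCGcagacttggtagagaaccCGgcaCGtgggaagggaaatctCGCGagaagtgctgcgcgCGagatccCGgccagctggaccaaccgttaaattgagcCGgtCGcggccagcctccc
Dazl: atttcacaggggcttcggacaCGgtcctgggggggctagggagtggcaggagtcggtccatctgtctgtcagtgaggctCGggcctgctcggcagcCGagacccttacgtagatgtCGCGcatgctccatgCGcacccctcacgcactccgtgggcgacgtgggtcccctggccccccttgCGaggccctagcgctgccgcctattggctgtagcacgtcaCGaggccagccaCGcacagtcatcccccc
Tdrd9: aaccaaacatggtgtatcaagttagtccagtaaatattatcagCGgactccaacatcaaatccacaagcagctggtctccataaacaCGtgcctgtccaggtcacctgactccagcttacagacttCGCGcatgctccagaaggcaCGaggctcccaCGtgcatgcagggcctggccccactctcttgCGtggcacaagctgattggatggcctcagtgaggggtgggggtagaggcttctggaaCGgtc
The Ddx4 stretch lies at chr13:112652311-112652560 on the minus strand, and 10 of its 31 CpGs were listed. The Sycp1 stretch is chr3:102936101-102936350, minus strand, with 10 of 17 CpGs listed. The Dazl stretch is chr17:50293621-50293870, minus strand, with 9 of 20 listed. The Tdrd9 stretch is chr12:111971309-111971558, plus strand, with 8 of 8 listed. In Ddx4 the listed CpGs lay in 2 groups, most of them 193 to 123 bases before the start and the others 47 to 35 before it. In Dazl they were spread between CpGs that no library listed, whereas no CpG of the Tdrd9 stretch was passed over.

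Promoters were compared over windows of 300 bases, from 250 before the start to 50 after it. The table holds 9 of the 10 members, all except Piwil2, and all 9 have at least 10 CpGs in the window. Windows with that many CpGs are called CpG-rich here, and 11883 of 27025 promoters were so. All 68806 positions that the knock-in libraries listed in the 27025 windows fell on a CpG, so each listed position could be set against the CpGs of the sequence.

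CpGs of the germline promoters were listed far more often than those of other CpG-rich promoters. Of their 197 CpGs, 88 were listed in at least 1 of the 11 knock-in libraries, or 44.7% (95% Wilson interval 37.9 to 51.6%, counting error only). Over all CpG-rich promoters it was 11267 of 283785 CpGs, or 3.97%. The median CpG-rich promoter had 0% of its CpGs listed, 8354 promoters (70.3%) had none, and the 90th percentile was 18.2%. All 9 members lay above that median and 8 above the 90th percentile.

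Among the genes of germ cell RNA regulation, Dazl, which encodes an RNA-binding protein needed for germ cell development, had 15 of 28 promoter CpGs listed, or 53.6%. Ddx4, the mouse Vasa gene for a DEAD-box RNA helicase, had the most CpGs of the members and 11 of 38 listed, or 28.9%. Of the synaptonemal complex genes, Sycp1, which encodes the transverse filament that joins paired meiotic chromosomes, had 14 of 21 listed (66.7%). Sycp3, an axial and lateral element of the same structure, had 8 of 15 listed (53.3%). Both meiotic genes therefore had most of their promoter CpGs listed at least once.

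The genes of the piRNA pathway, which silences transposons in germ cells through PIWI proteins and their small RNAs, spanned the whole range. Tdrd9, a tudor-domain RNA helicase of that pathway, had 10 of 10 promoter CpGs listed. Mael, a component of the nuage where piRNAs are made, had 8 of 24 listed (33.3%). Tdrd1, a tudor-domain protein that binds PIWI proteins, had 6 of 20 listed, or 30%. Stk31, a tudor-domain protein with a kinase domain, had the lowest share, 5 of 29 or 17.2%, and was the member below the 90th percentile. Tuba3a, an alpha-tubulin gene expressed in testis, had 11 of 12 listed, or 91.7%.

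**Figure D1:**
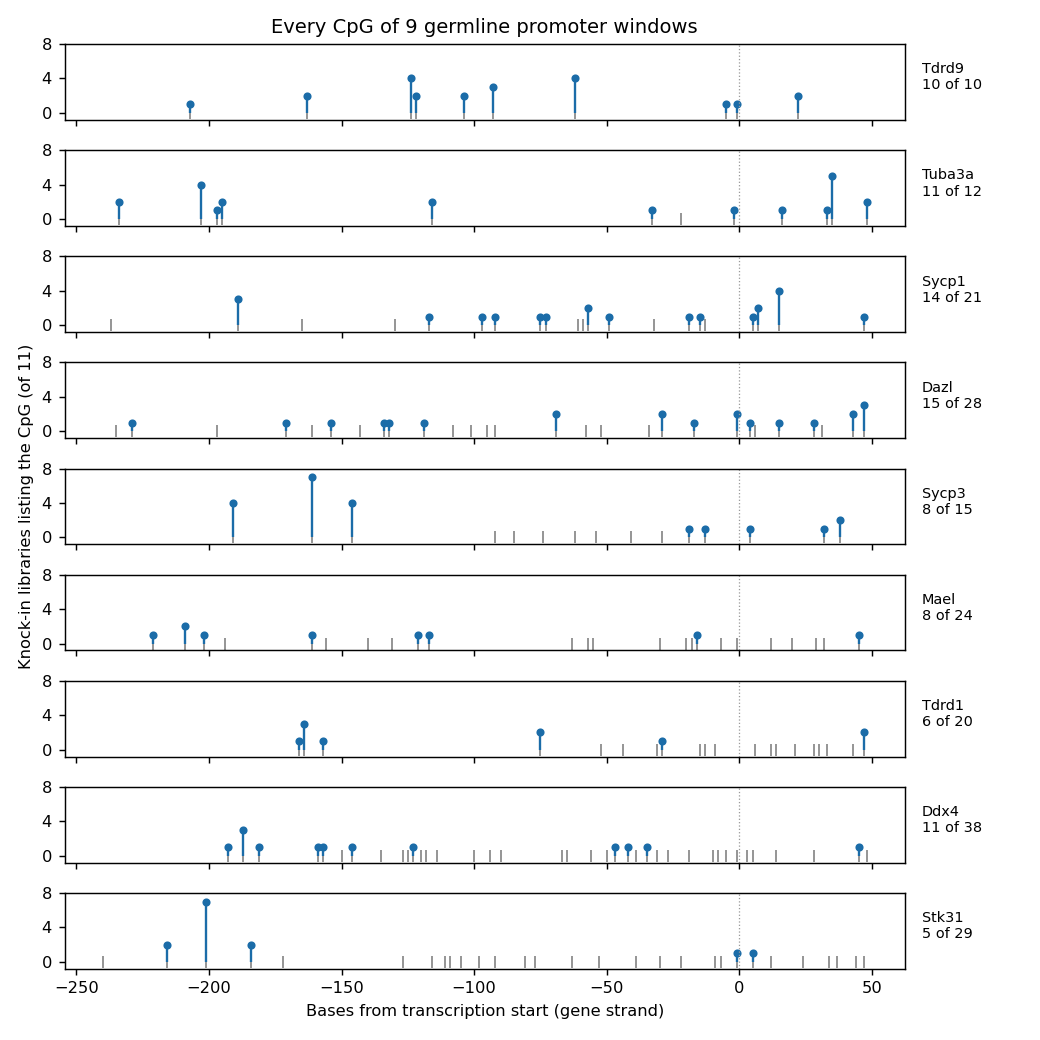
Map of every CpG of the 9 germline promoter windows, with distance from the transcription start in bases on the gene's strand (x axis) and the number of the 11 knock-in libraries that listed the CpG (y axis); gray ticks at 0 are the CpGs and blue stems are listed ones. Tdrd9 had all 10 CpGs listed and Stk31 5 of 29, and single CpGs of Sycp3 and Stk31 reached 7 libraries.

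Most listed promoter CpGs were found once or a few times. In Dazl, Ddx4 and Sycp1, 10 CpGs each were listed in a single library. The CpG listed most often in Sycp3 lay 161 bases before the start (chr10, position 88459426) and was listed in 7 libraries with 40 reads in all. The corresponding CpG of Stk31 lay 201 bases before the start (chr6, position 49395338), also in 7 libraries and with 65 reads. These sites lay at the outer part of the window, and in Stk31 the CpG next most often listed nearer to the start was in 2 libraries. No CpG was listed from 172 to 7 bases before the start in Stk31, or from 92 to 29 before it in Sycp3. In Ddx4 none was listed from 31 bases before the start to 28 after it. Near the start of Tdrd1 and Mael single CpGs were listed, 29 and 16 bases before it, in 1 library each. In Dazl, Sycp1, Tdrd9 and Tuba3a listed CpGs lay close to the start on both sides. In Tuba3a a CpG 35 bases after the start was listed in 5 libraries, and in Tdrd9 one 62 bases before the start in 4.

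The difference from other CpG-rich promoters was seen in each knock-in library. On day 0, 2 and 3 of the 197 germline promoter CpGs were listed (1.02% and 1.52%), against 0.184% and 0.111% over CpG-rich promoters. On day 2 the counts were 6 and 11, on day 4 they were 16 and 21, and on day 8 they were 25 and 11. The Het libraries listed 6, 23 and 28. The libraries also differ in how many positions they list at all, and replicates of a day differed, so the ratio to CpG-rich promoters is given beside the counts. That ratio ran from 5.51 on day 0 to 18.3 on day 2 and was above 1 in 11 of 11 libraries. By group it was 9.59 ± 5.78 (SD, n = 2) on day 0, 14.1 ± 5.91 (n = 2) on day 2, 15.3 ± 0.33 (n = 2) on day 4, 11.7 ± 4.88 (n = 2) on day 8 and 11.6 ± 5.14 (n = 3) in Het. The spreads of the days overlap, so no order of the days was read from them.

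**Figure D2:**
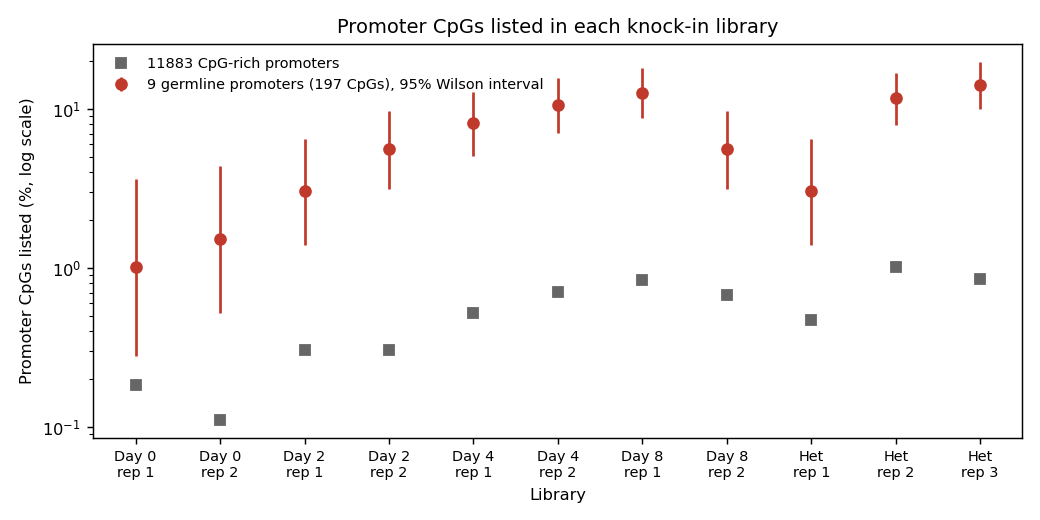
Percent of promoter CpGs listed in each of the 11 knock-in libraries (x axis), on a log scale (y axis), for the 197 CpGs of 9 germline promoters (red circles, bars are 95% Wilson intervals) and for 11883 CpG-rich promoters (gray squares). The germline value lies above the CpG-rich value in all 11 libraries, by a ratio of 5.51 to 18.3.

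None of the 5 wild-type libraries listed any of the 197 promoter CpGs, which allows a share of up to 1.52% in each library. The wild-type libraries are shallow, and the CpG-rich promoters as a whole had 0.00352% to 0.061% of their CpGs listed there. At that depth a share as low as the one on day 0 was not detectable.

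Other genes of the germline program had many listed promoter CpGs too. A list of 65 further germline genes had 43 CpG-rich promoters in the table, with 274 of 839 CpGs listed, or 32.7%. Of those 43, 28 lay above the 90th percentile of CpG-rich promoters and 9 had no listed CpG. Tex101, a surface protein of male germ cells, had 19 of 19 CpGs listed, and Fkbp6, an immunophilin of the piRNA pathway, had 19 of 21. A list of 27 repressors of germline genes and DNA methylation genes, among them Mga, E2f6 and Dnmt1, had 23 CpG-rich promoters with 5 of 695 CpGs listed, or 0.719%. Of those 23 promoters, 20 had none.

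The listed CpGs of the members were also gathered around their starts when a wider stretch was taken. Within 2 kb of the start, Dazl had 132 of the 208 listings of its whole region over the 11 libraries, which is 63.5% of the listings on 16.5% of the length. The density there was 8.78 times that of the rest of the region. It was 7.07 times for Sycp1, 4.12 for Sycp3, 3.74 for Mael, 3.57 for Stk31 and 2.32 for Ddx4. Tdrd9 at 1.74, Tuba3a at 1.54 and Tdrd1 at 1.14 had listings along the gene at a density nearer to that of their start. Among 22592 genes with enough listings, the median ratio was 0.803, and it was 0.56 for the 11131 of them with a CpG-rich promoter. The member median was 3.57, and 9 of 9 members lay above the upper quartile of CpG-rich genes, 0.87. Per base, the start was thus usually the depleted part in genes with CpG-rich promoters, and in the germline genes it was the denser one. In Tdrd1 it was only slightly so, as 1.14 lies below the upper quartile of all those genes, 1.20. These densities are not per CpG, and how far CpG density sets them was not tested.

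The profile around the start shows the same contrast by day. Listings within 1 kb of the start, set against those from 1 to 5 kb away, gave ratios for the 9 members of 2.00 and 2.32 in the day 0 libraries and 2.59 and 2.40 on day 2. The ratios were 3.03 and 3.49 on day 4, 4.24 and 3.12 on day 8, and 2.81, 3.19 and 3.93 in Het. Every day 4 and day 8 library lay above every day 0 and day 2 library. The day 0 ratios rest on few positions, as those libraries listed 139 and 134 in the 10 member regions together. How often other sets of genes show such an order was not tested, so no trend over the days is read from it. For the CpG-rich promoters the ratios ran from 0.466 to 0.724 and stayed below 1 in each library. Near the start the members' level was 0.701 to 0.943 listings per gene in each 500 bases, per 1000000 listed positions, over the day libraries. From 1 to 5 kb away it was 0.392 and 0.324 on day 0 and 0.222 and 0.243 on day 8. With 2 libraries a day, an exact permutation test cannot pass 0.05, and none was run on the ratio.

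**Figure D3:**
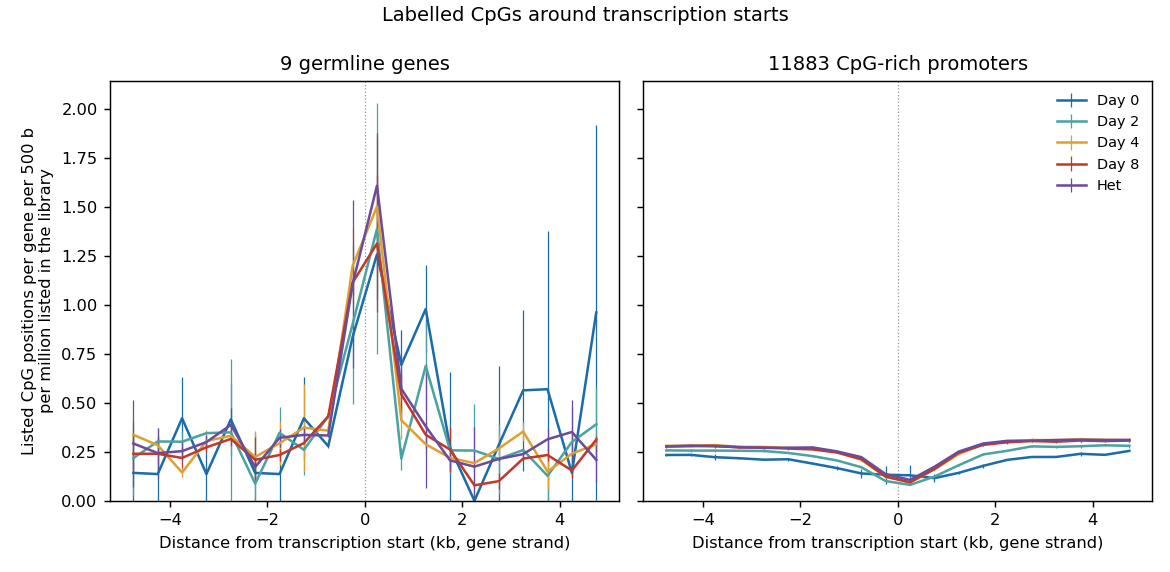
Listed CpG positions per gene per 500 bases, per 1000000 positions listed in the library (y axis), by distance from the transcription start in kb (x axis), for 9 germline genes (left) and 11883 CpG-rich promoters (right); lines are group means and bars SD over 2 (days) or 3 (Het) libraries. Germline genes peak within 500 bases of the start and CpG-rich promoters dip near it. Within 1 kb against 1 to 5 kb, the ratio on day 8 was 3.68 for the former and 0.525 for the latter.

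The promoters were searched on both strands for the 2 short motifs bound by the E2F6 and MGA-MAX complex. The E-box CACGTG was in 7 of 9 member windows, all but Dazl and Tuba3a, against 7.24% of all promoters and 11.1% of CpG-rich ones. The E2F core TCCCGC was in 5 of 9, namely Ddx4, Sycp1, Sycp3, Mael and Tuba3a, against 20.1% and 40.3%. Of the CpGs inside an E-box 4 of 9 were listed (44.4%), against 84 of 188 others (44.7%). The 4 were in Sycp1, Mael and Tdrd9, where every CpG of the Tdrd9 window was listed. Those in Ddx4, Sycp3, Stk31 and Tdrd1 were not listed. So few CpGs, pooled over promoters with unlike shares, do not show whether E-box CpGs were listed as often as others. Inside the E2F core 3 of 6 were listed. A match is a run of letters in the reference and does not show that a factor was bound there.

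Over whole gene regions the members had no common level. On a scale of listed positions per 1000000 listed and per kb, averaged over the 11 knock-in libraries, Tuba3a was highest at 1.36 ± 0.27 (SD, n = 11), at the 99.4th percentile of all genes. Tdrd1 followed at 0.99 ± 0.21, Tdrd9 at 0.79 ± 0.074 and Piwil2, the PIWI protein that takes part in making piRNAs, at 0.61 ± 0.088. Next came Dazl at 0.41 ± 0.07, Mael at 0.35 ± 0.05, Sycp3 at 0.32 ± 0.11, Ddx4 at 0.31 ± 0.069 and Stk31 at 0.29 ± 0.053. Sycp1, the longest member, was lowest at 0.18 ± 0.034, at the 14.0th percentile. The median gene had 0.521 with quartiles of 0.298 and 0.726, so the members spread over nearly the whole range of genes. The means of Tdrd1 and Tdrd9 differed by no more than the larger SD, as did the successive pairs from Dazl through Mael, Sycp3 and Ddx4 to Stk31. These SDs run over libraries of all knock-in groups and leave out that the genes share the libraries. Within most libraries Tdrd1 was above Tdrd9, though not in Het replicate 3 (0.802 against 0.825). These levels are per base, not per CpG, since no genome sequence was used, and how far CpG density sets them was not tested.

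The regions differ in length and neighbours. Tuba3a is the shortest gene, at chr6:125278270-125286081, and Dazl (chr17:50279393-50293620) and Sycp3 (chr10:88459587-88473236) are short too. Sycp1 (chr3:102818499-102936100), Tdrd9 (chr12:111971488-112068854) and Stk31 (chr6:49395506-49469506) are the longest. The others are Ddx4 (chr13:112598333-112652633), Mael (chr1:166201385-166238744), Tdrd1 (chr19:56826171-56870012) and Piwil2 (chr14:70372477-70436898). Of the 10 regions, 8 hold part of another annotated gene, and Chpt1 covers 8724 bases of the Sycp3 region. Listings there cannot be assigned to one gene or the other. Dazl and Mael have no annotated neighbour within 5 kb.

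Among the knock-in groups the members together took a like share of all listings, with both day 0 libraries highest. They held 0.0343% ± 0.0019 of the listed positions on day 0 (SD, n = 2), 0.029% ± 4.33e-05 on day 2, 0.0312% ± 0.00064 on day 4 and 0.0295% ± 0.0011 on day 8. In Het it was 0.0309% ± 0.0016 (n = 3). Reads per position in the members followed those of the genome, 12.1 against 11.4 on day 0 and 4.04 against 4.08 on day 8. Over the 11 libraries 3488 distinct positions were listed in the members, of which 47.6% were in 1 library and 15 (0.43%) in 6 or more. For the whole genome these shares were 49.4% and 0.455%. The most recurrent member position was in Piwil2 (chr14, position 70409000), in 8 libraries with 77 reads. On day 0, 13 member positions were shared by both replicates, 9.35% and 9.70% of each, against 5.16% and 4.94% genome-wide. On day 8, 155 were shared, 17.6% and 19.6%, against 18.4% and 21.6%.

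The comparison of priming days asked whether DNMT1-dependent labelling of the germline genes moved as the cells left the naive state. Tdrd1 fell. It had 76.9 and 73.7 scaled positions, which are distinct positions per 1000000 listed in the library, in the day 0 libraries, 51.3 and 53.5 on day 2, 52.6 and 49.7 on day 4, and 46.0 and 47.6 on day 8. Both day 0 libraries stood above all the others, and Het, at 49.3, 45.3 and 43.2, lay with the later days. From day 0 to day 8 its distinct positions, after scaling, fell by 0.80 on the log2 scale (SE 0.21, edgeR quasi-likelihood adjusted p = 0.0113, over 28751 genes). It was the 1 member of 10 that passed, where 4.43% of all genes did and 2.8% were lower. On day 4 it was also the 1 member that passed (log2 -0.69 ± 0.21 SE, edgeR adjusted p = 0.0403), again against 4.43% of genes, 2.87% being lower. The day 4 call was lost in 11 of 17 alternative settings, with edgeR adjusted p = 0.27 and 0.284 without either day 0 library. The distinct positions behind these values were 30 and 30 on day 0 and 141 and 124 on day 8, and without either day 0 library the day 8 call was lost (edgeR adjusted p = 0.182 and 0.193, log2 -0.77 and -0.81). Days 2, 4 and 8 were each compared with the same 2 day 0 libraries, so these comparisons share them.

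The other members did not pass on day 8 by distinct positions. Tdrd9 had 99.96 and 90.9 scaled positions on day 0 and 77.3 and 80.3 on day 8 (log2 -0.39 ± 0.18 SE, edgeR adjusted p = 0.23). Stk31 had 35.9 and 27.0 on day 0 and 23.2 and 22.3 on day 8 (-0.58 ± 0.32, edgeR adjusted p = 0.349). Both were below day 0 without overlap, as was Tdrd1, and 23.9% of all genes were so. Ddx4 had 10.3 and 19.6 on day 0 and 23.5 and 26.9 on day 8, with day 4 between them at 22.5 and 21.0 (0.62 ± 0.40, edgeR adjusted p = 0.437). Sycp3 had 2.56 and 4.91 on day 0, which are 1 and 2 positions, and 7.50 and 9.22 on day 8 (1.01 ± 0.77, edgeR adjusted p = 0.52). These 2 genes were above day 0 without overlap, as were 28% of genes, so neither count of members stands far from that of genes at large.

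In the remaining 5 members day 0 and day 8 overlapped. Dazl had 7.69 and 12.3 scaled positions on day 0 and 7.50 and 8.84 on day 8. Tuba3a had 35.9 and 17.2 on day 0 and 20.2 and 22.3 on day 8, so that its day 0 libraries lay on both sides of the later ones. The log2 changes were -0.42 ± 0.56 (SE) for Dazl, -0.43 ± 0.34 for Tuba3a, -0.26 ± 0.25 for Piwil2, -0.01 ± 0.36 for Sycp1 and 0.04 ± 0.43 for Mael. Over the 10 members the median change was -0.33, with 7 below 0 and 3 above, beside 0.03 over all genes tested. Scaling by library totals in place of TMM moved the median of all genes to 0.14 for positions and from 0.06 to 0.22 for reads, so the values here are read relative to those medians.

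**Figure D4:**
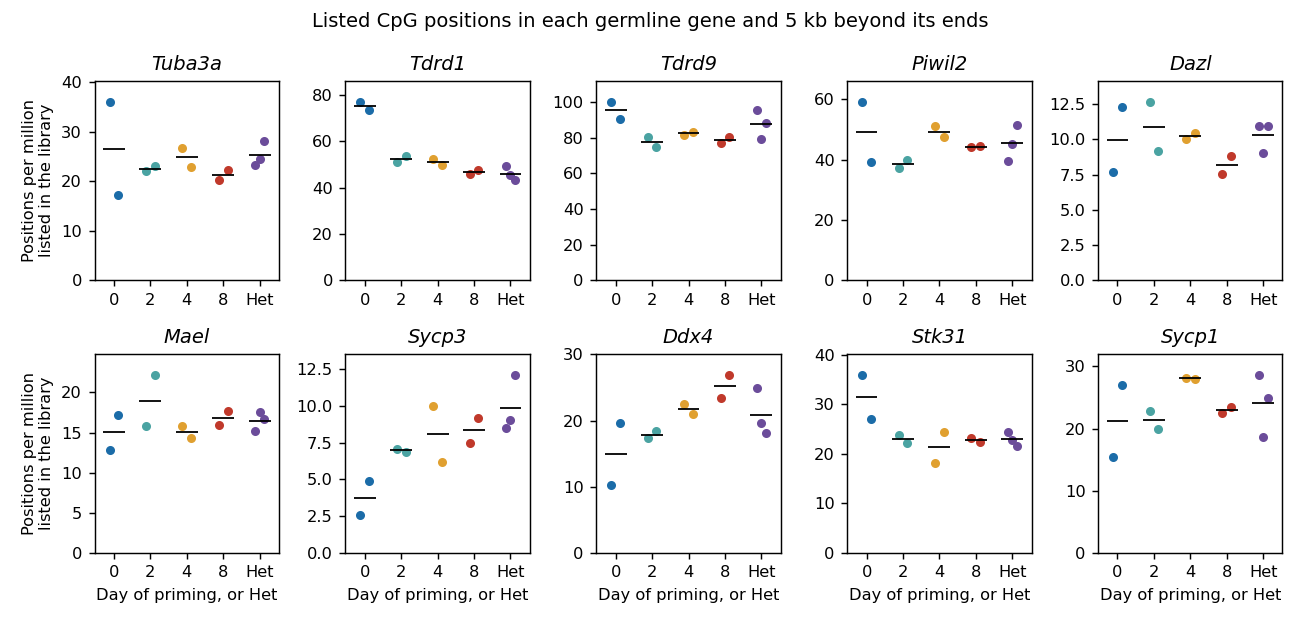
Listed positions per 1000000 of the library in each of the 10 germline gene regions (y axis, from 0, scale differs by panel) for days 0, 2, 4 and 8 and Het (x axis); points are libraries and black lines group means. Tdrd1 is above 73 in both day 0 libraries and at 53.5 or less in every later library, whereas the day 0 points of Tuba3a and Dazl enclose or overlap those of day 8.

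Counting reads in place of distinct positions gave the same 1 call on day 8. Tdrd1 had 80.2 and 66.5 scaled reads, per 1000000 reads of the library, on day 0 and 44.1 and 44.1 on day 8, and fell by 0.89 on the log2 scale (SE 0.19, edgeR adjusted p = 0.0386, over 33113 genes). It was the 1 member called where 3.2% of genes were, and 1.27% were lower. Tdrd9 had 102 and 112 scaled reads on day 0 and 82.4 and 77.4 on day 8 (-0.57 ± 0.15 SE, edgeR adjusted p = 0.0677). Dazl had 15.9 and 15.4 on day 0 and 9.53 and 4.56 on day 8 (-1.31 ± 0.48 SE, edgeR adjusted p = 0.158). For Dazl the reads were lower on day 8 without overlap while its distinct positions overlapped. Its day 0 reads lay on 3 and 5 positions, and the share of all genes without overlap was not taken for reads. Sycp3 had 0.476 and 7.59 scaled reads on day 0, so its 2 day 0 libraries were farther apart than any later pair. The member median was -0.43 for reads, beside 0.06 over all genes. The Tdrd1 call on reads was lost when any one library of days 2, 4 or 8 was left out, where no gene at all was called, and also with library totals, with the 4 libraries of the 2 days alone and over the gene body alone.

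**Figure D5:**
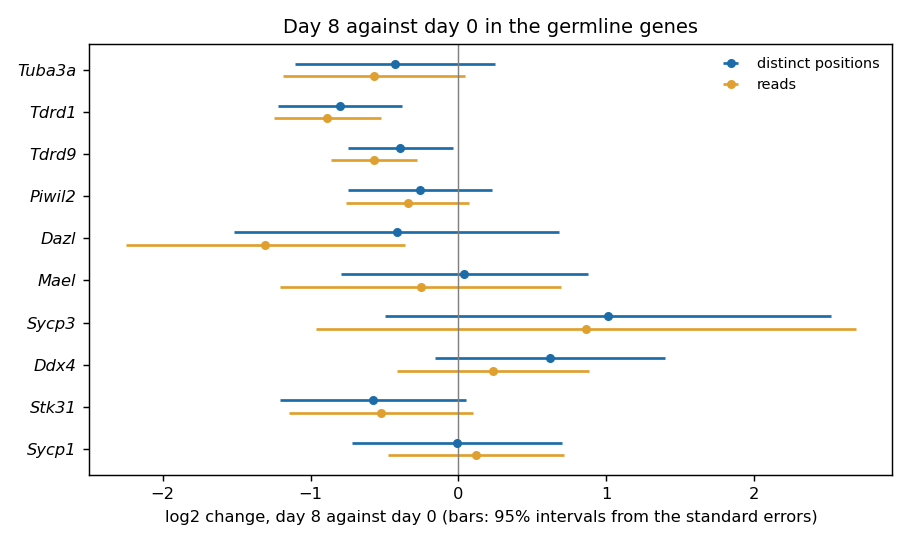
log2 change from day 0 to day 8 (x axis) of the 10 germline genes (y axis, ordered by level per kb), for distinct positions (blue) and reads (orange), with bars of approximate 95% intervals from the standard errors of the edgeR fit, not adjusted for the number of genes. After scaling to the library, Tdrd1 fell in both measures (-0.80 and -0.89) and is the 1 gene called, while Sycp3 has the widest bars.

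On day 2 no member passed by positions, where 1.01% of genes did, or by reads, where 1.13% did. Before adjustment, edgeR gave p under 0.05 for 1 member by positions, where 12.3% of genes had it, and 2 by reads, where 19.9% had it. By reads DESeq2 called 2 members, where it called 15.5% of genes. By positions it called 0, against 0.546% of genes, but gave an adjusted p to only 3 members. On day 4 no member passed by reads, against 3.42% of genes. Before adjustment 3 members did in edgeR, against 22% of genes, and DESeq2 called 2, against 18.5% of genes. Between day 2 and day 8 no member passed by positions, where 0.25% of genes did, and none had an unadjusted p under 0.05 in edgeR, where 8.85% of genes did. DESeq2 gave no member an adjusted p for that pair of days. Ddx4 had the largest change upward there, 0.44 ± 0.23 (SE, edgeR adjusted p = 0.602), and Dazl the largest downward, -0.46 ± 0.34 (edgeR adjusted p = 0.763).

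Around the starts alone the counts were too low for most members. Of the 10, 3 passed the filter on low counts within 2 kb of the start, and these are the members with more positions there, so they do not stand for all members. None of the 3 was called, where 0.875% of 4345 tested genes were, and none had an unadjusted p under 0.05 in edgeR, against 14.4% of genes, or was called by DESeq2. Dazl listed 2 and 3 positions there on day 0 and 15 and 14 on day 8 (log2 -0.03 ± 0.71 SE after scaling). Tdrd9 listed 4 and 3 on day 0 and 11 and 11 on day 8 (-0.90 ± 0.69). Tuba3a listed 5 and 2 on day 0 and 24 and 15 on day 8 (-0.08 ± 0.57). A change in labelling of the promoters between days was therefore not detectable at this depth.

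Between the Het triplicate and day 8 no member passed by positions, as no gene of 30377 did (0%), and 0 members had an unadjusted p under 0.05 in edgeR, where 3.69% of genes did. The log2 differences of Het over day 8 ran from -0.31 ± 0.16 (SE) for Ddx4 to 0.31 ± 0.26 for Dazl. The design text describes the Het triplicate and the day series as separate analyses, and whether they share a batch is not stated.

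The wild-type libraries gave the background of the assay in the members. Every Het library had more reads than every WT library in 10 of 10 members, as was so for 95.8% of all genes (exact two-sided permutation p = 0.1 for each, the smallest that 3 against 3 allows). Sycp3 had the fewest Het reads, 128, 235 and 218, and 0 in each WT library. Piwil2 had 708, 1189 and 1165 in Het and up to 8 in WT. In all 5 wild-type libraries together, 7 member positions with 22 reads were listed, in Ddx4, Tdrd9, Tuba3a and Piwil2, and the other 6 members had none. All 7 positions were also listed in a knock-in library. The libraries WT replicate 2 and wild-type control replicate 2 listed no member position, which allows a share of up to 0.312% and 0.0857% of their positions. The wild-type libraries hold far fewer reads in all, and the reason for that was not tested. Relative to their own totals, the members held 0.035% ± 0.0304 of positions in WT (SD, n = 3). In wild-type control it was 0.0109% ± 0.0155 (n = 2). These shares rest on 2, 0 and 3 member positions in WT and 2 and 0 in wild-type control, too few to compare with Het.

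Few of the further germline genes passed the test over the days. Of the 65, 63 could be tested by positions on day 8, and 0 rose and 1 fell, where 4.43% of all genes passed, with a median change of -0.01. Zcwpw1, a reader of histone marks laid down at meiotic recombination sites, fell by 1.03 (SE 0.26, edgeR adjusted p = 0.0045). It was also the 1 gene of the list called by positions on day 2 (log2 -1.23 ± 0.28 SE, edgeR adjusted p = 0.00765), where 1.01% of genes were. On day 4 it fell again by positions (-1.01 ± 0.26, edgeR adjusted p = 0.00736), and Tex11, an X-linked meiotic gene, rose (1.46 ± 0.44, edgeR adjusted p = 0.0316). By reads 1 gene of the list fell on day 4, Brdt, a testis bromodomain protein (-1.32 ± 0.29, edgeR adjusted p = 0.0435), and 1 rose, Asz1, a piRNA pathway protein (1.80 ± 0.42, edgeR adjusted p = 0.0497), where 3.42% of genes passed. By reads on day 8, where 3.2% of genes passed, 64 were tested and none did, 12 having an unadjusted p under 0.05 in edgeR, where 21.6% of genes did. Of the 27 repressors, on day 8 by positions 0 rose and 1 fell, Smchd1, a chromatin protein of X inactivation and imprinting (log2 -0.69 ± 0.20 SE, edgeR adjusted p = 0.0196). By reads 1 rose, Rnf2, the catalytic ubiquitin ligase of Polycomb complex PRC1 (1.75 ± 0.39, edgeR adjusted p = 0.0449). Rnf2 was also the 1 repressor called on day 4. It rose there by reads (2.08 ± 0.39, edgeR adjusted p = 0.0299) and by positions (2.03 ± 0.56, edgeR adjusted p = 0.0178). On the scale of the fit Rnf2 had 5.26 positions on day 0 and 22.2 on day 4. That day 0 level is low, as is the 3.95 of Sycp3, which held 1 and 2 positions. When only the 4 libraries compared were fitted, no gene was called by reads on day 4 or on day 8. The read calls of Brdt, Asz1 and Rnf2 were therefore lost in that setting. The position calls of Zcwpw1, Tex11, Smchd1 and Rnf2 were not followed under the alternatives. With the 4 libraries compared alone, genes called by positions on day 8 went from 1273 to 466.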

How the data were processed

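Genomic DNA was enriched for azide-labelled fragments and sequenced by the TOP-seq procedure, per the labels' protocols. The submitters' processing notes name cutadapt 4.4, BWA 0.7.17-r1188, SAMtools 1.12 and the build mm10. The authors deposited 1 table per library, in which coverage is a whole-number read count for each listed position, per the file headers and values, with no normalization. Any duplicate filter and the mapping parameters were not given in the sources used here. Reads carry no molecular identifiers, so intervals and floors cover counting error only.

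Distinct positions and reads were summed per gene of RefSeq GRCm38.p6, whose coordinates are those of mm10, with 5 kb beyond each end. Reads under overlapping genes were counted in all of them, without strand. Counts were fitted with edgeR 4.0.16 in R 4.3.3 (filterByExpr, TMM, glmQLFit and glmQLFTest) over the 8 day libraries, and over 11 for Het against day 8, with Benjamini-Hochberg adjustment at 0.05. Library sizes were the totals of the deposited tables. DESeq2 1.42.0 was another tool. Standard errors are the log2 change over the square root of F. The common biological coefficient of variation was estimated at 0.386 for reads. For positions it lay at the lower limit of the search, 0.00988, and is no measured variation. Standard errors and p-values for positions therefore rest mainly on counting error. The fit was also run on counts simulated from its own estimates, which cannot show whether its error model holds for low counts such as those of day 0. Promoter CpGs came from RefSeq's promoter table and were counted with Python 3.11.15 and pandas 2.3.3. The annotation gives no strand, so starts and strands came from that table. Het and WT were compared by exact permutation of log10(reads + 1) with scipy 1.17.1.

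Groups came from the sample titles. All 10 members are named in each comparison. Other genes were named where they passed on day 8, with those called on days 2 and 4 and examples from the promoter lists chosen after their values were seen. The rule for single positions took, per member, the one with most reads and the one in most libraries, and those shown are the ones in most libraries. The members and lists were chosen with earlier results of these data known. Alternatives were other scalings, filters, gene extents, read caps, fewer libraries and leaving out each library.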

Additional observations from a re-analysis of the deposited data

How the results depend on the processing

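The higher share of listed CpGs in the member promoters was found under every alternative run. The share was 36.9% over the 6 members with at least 20 promoter CpGs, against 1.37% for the 7236 promoters like them, and 37.6% to 44.7% when each knock-in library was left out. These promoter alternatives were chosen after seeing the data. Het exceeded WT in 10 of 10 members under every alternative, as 95.8% of all genes did in the comparison reported. Het libraries held 19127067 to 25175264 reads and WT libraries 1640 to 19723, so this comparison could hardly come out otherwise. The calls over days are few and moved with the settings, and the cause was not tested. By reads on day 8 the members called went from 1 to 0 with library totals, with the 4 libraries compared alone, with the replicate block and over the gene body alone, and to 3 with DESeq2, which called 18% of genes. Leaving out each library gave 0 to 4 members on day 8, 0 to 3 on day 2 and 0 to 4 on day 4. On day 8 the 4 came without day 0 replicate 2, where 27.5% of genes were called, and 2 members were called without day 0 replicate 1, where 27.6% were. DESeq2 called 2 members by reads on day 2 (15.5% of genes) and 2 on day 4 (18.5%), and reads capped at 5 per position gave 1 on day 4 (6.43%). By positions on day 8 the count was 0 with the 4 libraries alone, 2 over the gene body alone, where Tuba3a also fell (log2 -1.44, edgeR adjusted p = 0.0241), and 0 to 1 with each library left out. On day 4 it was 0 with library totals, DESeq2, no filter, the 4 libraries alone or positions of at least 2 reads, and 0 to 1 with each library left out. DESeq2 gave only 7 members an adjusted p by positions on day 4. Tdrd1 stayed below 0 in each setting of each day against day 0.

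Replicate numbers did not pair the samples: deviations of same-numbered libraries correlated between -0.011 and 0.017. With the replicate block, the reads called on day 8 went from 1061 to 278 genes and Tdrd1 had an edgeR adjusted p of 0.0663, while positions went from 1273 to 1236 genes.

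The members that changed sign were not called in the fit reported, and 1 of the values below was called. By reads, Sycp1 was -0.059 with 10 kb beyond each end, -0.31 with capped reads, and between -0.057 and 0.32 with each library left out. With each library left out, Ddx4 ran from -0.033 to 0.57, Sycp3 from -0.035 to 3.93 and Mael from -0.84 to 0.75. The 3.93 of Sycp3 was called (edgeR adjusted p = 0.00387) and came without day 0 replicate 2, the sole other day 0 library holding 1 position there. By positions, Sycp1 was 0.10 with library totals, 0.015 with no filter, 0.0014 with the 4 libraries, 0.0036 over the gene body, and -0.35 to 0.48 with each library left out. Mael was -0.00077 over the gene body, -0.047 with 10 kb, and -0.15 to 0.29 with each library left out. Tuba3a ran from -0.85 to 0.18 and Piwil2 from -0.51 to 0.055. The day 0 libraries listed 139 and 134 positions in the 10 members together, and the wild-type libraries 0 to 3.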
